A study of Homo sapiens with 48 samples.

Results

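The matrix metalloproteinase (MMP), tissue inhibitor of metalloproteinase (TIMP) and ADAMTS genes were examined in RNAseq data of PSN1, a human pancreatic cancer cell line. Members were taken by name: every gene of the table whose symbol is MMP, TIMP or ADAMTS followed directly by a number, which leaves out the ADAMTS-like (ADAMTSL) proteins. This gave 46 of the 20241 genes, namely 23 MMP, 4 TIMP and 19 ADAMTS genes. There were 3 groups of 3 libraries each. Parental cells had no drug. TalaR-M cells, which had acquired resistance to Talazoparib, an inhibitor of the DNA repair enzyme PARP1, were kept in 50 nM of it, and their labels give a time of 4 months. TalaR-DF cells were the resistant cells after 4 weeks without drug, so both resistant groups carry the history of selection and only TalaR-M cells were in drug when RNA was taken. The labels do not say that replicates came from separate cultures, so the p-values below measure the spread between these libraries and may be technical, and that PSN1 is 1 line limits what the groups stand for.

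MMPs are zinc-dependent proteases that cut collagens, other matrix proteins and many surface proteins. Most are secreted as inactive precursors, and the membrane-type MMPs are anchored at the cell surface. TIMPs bind the active site of MMPs and block it, and TIMP3 also inhibits several ADAM and ADAMTS proteases. ADAMTS enzymes are secreted relatives whose thrombospondin repeats hold them to the matrix. They cut proteoglycans such as aggrecan and versican, trim procollagens, or act on fibrillin, cartilage oligomeric matrix protein (COMP) or von Willebrand factor. In pancreatic cancer these families are studied for their part in remodelling the dense stroma and in invasion.

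The sequences upstream of 4 members that the results turn on are shown first: ADAMTS12 and MMP24, which rose most in TalaR-M cells, TIMP1, which has the highest level per length of all members in every library, and MMP15, another member that rose. They are RefSeq promoter windows on GRCh38.p14, written from the distant end towards the gene and limited to bases upstream of the start that no annotated exon covers. Capitals mark TGANTCA, the core motif of AP-1 factors, and CAGGTG, an E-box bound by EMT factors such as SNAI2, each searched on both strands over the 250 bases before the start.

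ADAMTS12, chr5:33892020-33892240, minus strand: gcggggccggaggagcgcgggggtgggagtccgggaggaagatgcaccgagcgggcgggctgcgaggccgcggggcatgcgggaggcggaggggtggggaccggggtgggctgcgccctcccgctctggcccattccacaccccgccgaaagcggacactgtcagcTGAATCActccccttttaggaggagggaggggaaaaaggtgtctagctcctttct
MMP15, chr16:58025504-58025753, plus strand: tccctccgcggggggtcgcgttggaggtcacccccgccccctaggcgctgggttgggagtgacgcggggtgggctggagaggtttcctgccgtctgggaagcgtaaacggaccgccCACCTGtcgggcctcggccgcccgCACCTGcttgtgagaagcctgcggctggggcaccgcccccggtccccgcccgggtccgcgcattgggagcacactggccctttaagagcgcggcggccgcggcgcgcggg
MMP24, chr20:35226440-35226689, plus strand: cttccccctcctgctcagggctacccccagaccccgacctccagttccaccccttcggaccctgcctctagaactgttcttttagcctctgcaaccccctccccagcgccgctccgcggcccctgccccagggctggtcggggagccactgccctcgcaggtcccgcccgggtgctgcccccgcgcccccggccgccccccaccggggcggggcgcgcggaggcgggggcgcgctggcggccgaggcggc
TIMP1, chrX:47582186-47582407, plus strand: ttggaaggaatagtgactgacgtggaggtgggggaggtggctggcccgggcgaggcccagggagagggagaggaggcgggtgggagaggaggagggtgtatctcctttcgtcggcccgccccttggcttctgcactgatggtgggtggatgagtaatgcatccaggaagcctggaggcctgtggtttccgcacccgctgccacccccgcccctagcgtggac

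Of the 22 members that could be tested, 13 had a window in the RefSeq table. TGANTCA was found in 1 of them, ADAMTS12, as TGAATCA with its first base 84 bases before the start. The same motif is in 6.6% of 27305 promoters and in 3.91% of the 9563 that belong to tested genes. CAGGTG was also found in 1 of the 13, MMP15, whose window has it on the other strand as CACCTG at 134 and 110 bases before the start. It is in 17.5% of all promoters and in 15.5% of those of tested genes. Members that were not tested were searched too where they had a window. Among them TGANTCA was found in MMP7, MMP10 and MMP20, and CAGGTG in ADAMTS17 and MMP26. These genes were not above 1 CPM, the measure explained below, in any library. MMP1 had no window, so it was not searched. The windows shown are rich in G and C, at 68.4% for ADAMTS12, 74.8% for MMP15, 77.6% for MMP24 and 64.8% for TIMP1, against a median of 65.2% over the promoters of tested genes.

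Each deposited value is the log2 of CPM, a gene's reads scaled to the size of its library, and 0 stands for 1 CPM or less. Between 8387755 and 14973847 reads per library lay on genes over 1 CPM, the fewest in TalaR-M replicate 2. That library stood apart from its group. Across genes, its correlation with the other TalaR-M libraries was 0.78, against 0.99 or more within the other groups and between TalaR-M replicates 1 and 3. It differed from the mean of those replicates more than 2-fold for 4858 of 10512 genes. Its deviation moved with transcript length: the median was 1.41 log2 units above the other TalaR-M libraries for transcripts of at most 1364 bases and -1.45 for those of at least 7778 bases. Among 14 members with a mean above 2 log2 CPM, the Spearman correlation of deviation and length was -0.824, and over all 10459 such genes with a length it was -0.643. TIMP1 (769 bases) read high in TalaR-M replicate 2 and ADAMTS12 (8572 bases) read low. For members whose call changed or whose called value moved by more than 1.5-fold when this library was left out, both values are given. Why it deviates was not tested.

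**Figure D1:**
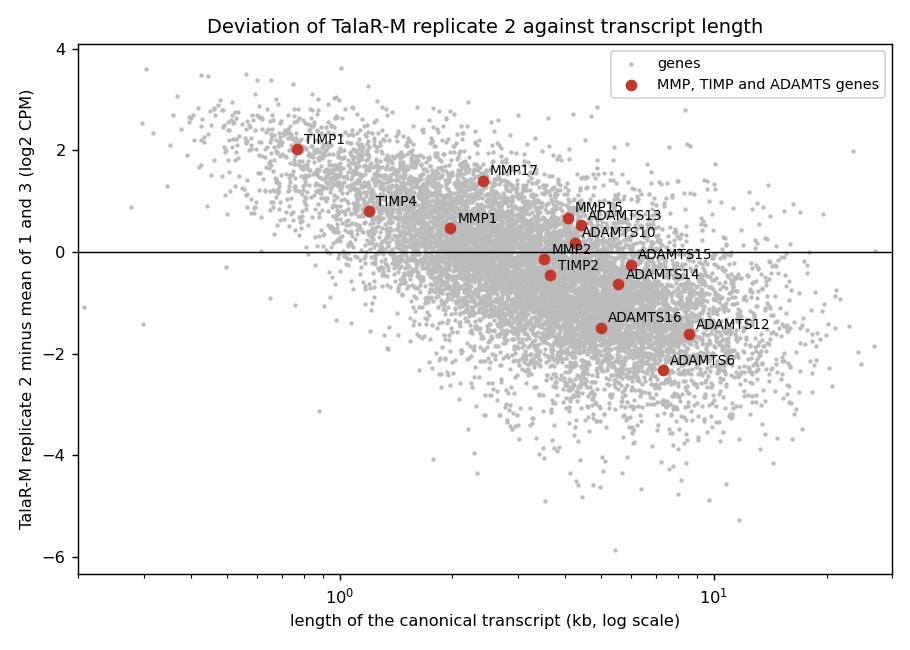
Value in TalaR-M replicate 2 minus the average of the other 2 TalaR-M libraries (y axis, log2 CPM) against the length of the canonical transcript (x axis, kilobases, log scale), for 10459 genes in grey and 14 members in red. Short members such as TIMP1 lie above 0 and long members such as ADAMTS12 and ADAMTS6 lie below it.

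Markers of cell types were examined in the same libraries. Of 6 epithelial markers, 5 were above 1 CPM in every group, and CDH1, which encodes E-cadherin, was at 0 in all 9 libraries. The summed epithelial level was 1078 to 1132 CPM in parental, 1701 to 5773 in TalaR-M and 949 to 1085 in TalaR-DF cells. The 5773 was TalaR-M replicate 2, and the other TalaR-M libraries had 1847 and 1701. For 8 fibroblast markers the sums were 495 to 510, 303 to 455 and 101 to 110 CPM, with THY1 and FAP at 0 throughout, DCN at 0 in parental and TalaR-DF cells and COL1A2 at 0 in TalaR-M cells. The fibroblast markers went both ways in TalaR-M cells, where COL1A1 and DCN were called higher and COL1A2, LUM, PDGFRA and PDGFRB lower than in parental cells. DCN was above 0 in no other group, so its TalaR-M libraries decided that it was tested. Leukocyte markers summed to 11.1 to 14.7, 4.14 to 7.11 and 1.18 to 2.56 CPM, with CD68 and CD3E at 0. Endothelial markers summed to 28.8 to 30.9, 5.91 to 9.06 and 2.92 to 3.24 CPM, with VWF at 0. These sums moved with the groups, and their part in the results on the members was not tested. In bulk RNA, fewer cells expressing a gene and less RNA per cell cannot be told apart.

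Many members were not detected above 1 CPM in PSN1 cells. Of the 46 members, 22 were above 1 CPM in at least 3 of the 9 libraries and could be tested: 8 MMPs, all 4 TIMPs and 10 ADAMTS genes. Another 23, 14 MMPs and 9 ADAMTS genes, were at 0 in every library, and MMP25 was just above 0 in 2 libraries. Those at 0 include MMP3, MMP7, MMP9, MMP10 and MMP13, which are secreted MMPs, and ADAMTS1, ADAMTS4 and ADAMTS5, which cut aggrecan and versican. Of the cluster of 9 MMP genes on chromosome 11, MMP1 alone was above 0 in any library. Some tested members owe their place to few groups. ADAMTS8 was above 0 in TalaR-M cells only, and ADAMTS7, MMP14, MMP19 and MMP24 were at 0 in all libraries of 1 group each. These 5 were above 0 in fewer than 3 libraries outside the group where they were highest, so that group decided that they were tested.

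**Figure D2:**
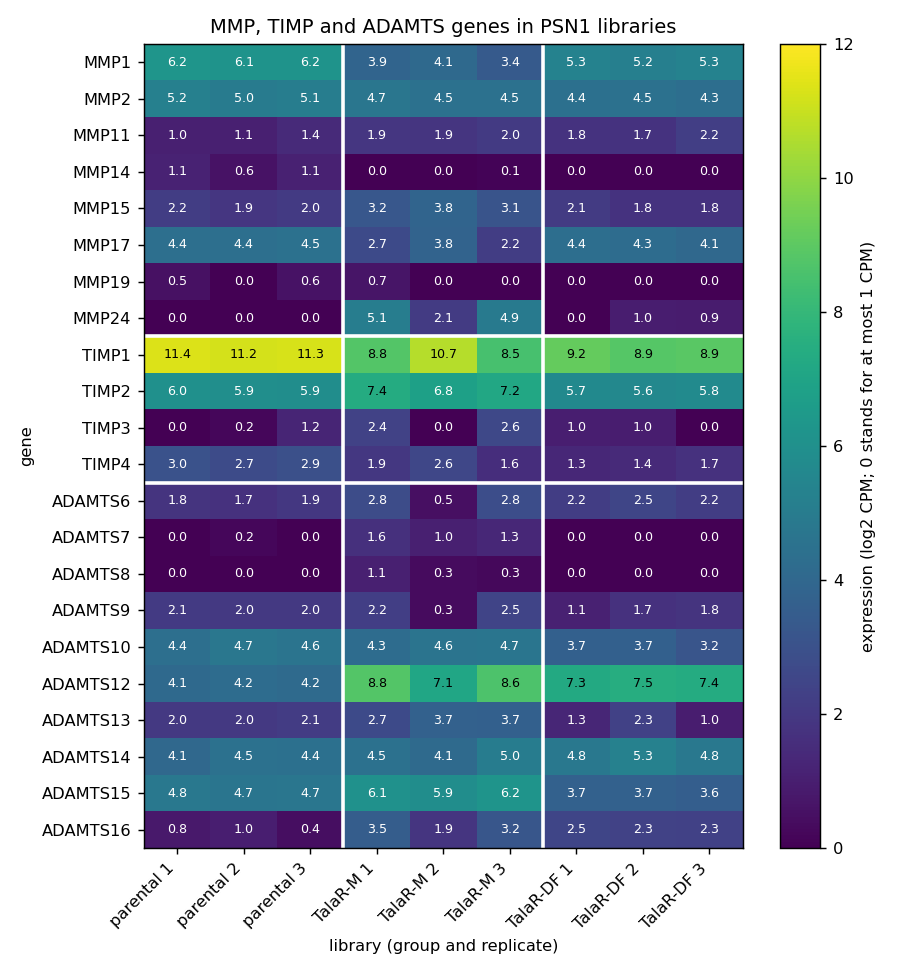
Expression of the 22 tested members (rows, by family) in the 9 PSN1 libraries (columns, by group and replicate), in log2 CPM, where 0 stands for 1 CPM or less. TIMP1 is brightest in the 3 parental libraries and in TalaR-M replicate 2, and ADAMTS12 is brighter in all 6 resistant libraries than in any parental library.

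Levels of different genes were compared as CPM per kilobase of transcript. TIMP1 was far above every other member, at 3250 ± 148 (SD, n = 3) in parental, 1060 ± 922 in TalaR-M and 666 ± 79.7 in TalaR-DF cells, and made up 91.6% to 99.3% of the summed TIMP level of each library. TalaR-M replicate 2 raised the TalaR-M mean, which was 523 without it and then lay below that of TalaR-DF cells. MMPs together reached 56.0 to 60.8 in parental libraries, 24.8 to 29.9 in TalaR-M and 35.8 to 37.3 in TalaR-DF libraries. These ranges do not overlap. MMP1 gave the largest part of the MMP sum in all parental and TalaR-DF libraries and in TalaR-M replicate 2, with MMP24 leading in TalaR-M replicates 1 and 3. The ADAMTS sum went the other way, with 16.9 to 19.1 in parental libraries, 39.5 to 77.9 in TalaR-M and 31.3 to 36.2 in TalaR-DF libraries. The 39.5 was TalaR-M replicate 2, and the others of its group had 77.1 and 77.9. ADAMTS10 led it in parental cells and ADAMTS12 in all 6 resistant libraries.

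Differences between groups were tested with limma over all 12471 genes that passed the filter. Calls required 2-fold or more and an adjusted p (Benjamini-Hochberg) below 0.05. Between TalaR-M and parental cells, 11 of the 22 tested members were called, 8 higher and 3 lower, where 13.3% of all tested genes were called (5.53% higher and 7.72% lower). Between TalaR-DF and parental cells, 6 members were called, 2 higher and 4 lower, against 9.73% of all genes (2.25% higher and 7.49% lower). Between TalaR-M and TalaR-DF cells 7 members were called, 6 higher in TalaR-M cells and 1 lower, against 6.93% of all genes (5.29% higher and 1.64% lower). The first and second comparison share the parental libraries. Without TalaR-M replicate 2 the counts were 13, 6 and 10. Calls over all genes also rose in that fit in all 3 comparisons, least between TalaR-M and parental cells. Between TalaR-DF and parental cells they went from 1214 to 1417 of the 12471 genes. Between TalaR-M and TalaR-DF cells they went from 864 to 1043, so these gains were not particular to the members. Leaving out the 5 members that were tested because of 1 group, and all genes like them, the counts were 9, 6 and 5 of 17, against 11.7%, 8.6% and 6.54% of 11795 genes. Groups did not overlap for 16, 15 and 10 members, where 49.8%, 68.5% and 40.8% of all genes did not overlap. The median change of the tested members was 0.40, -0.22 and 0.50 log2 units in the 3 comparisons, beside -0.09, 0.01 and -0.09 over all genes. Rescaling by the median ratio moved these medians of all genes to 0.01, -0.01 and 0.03, and turned the sign of no member that was called.

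**Figure D3:**
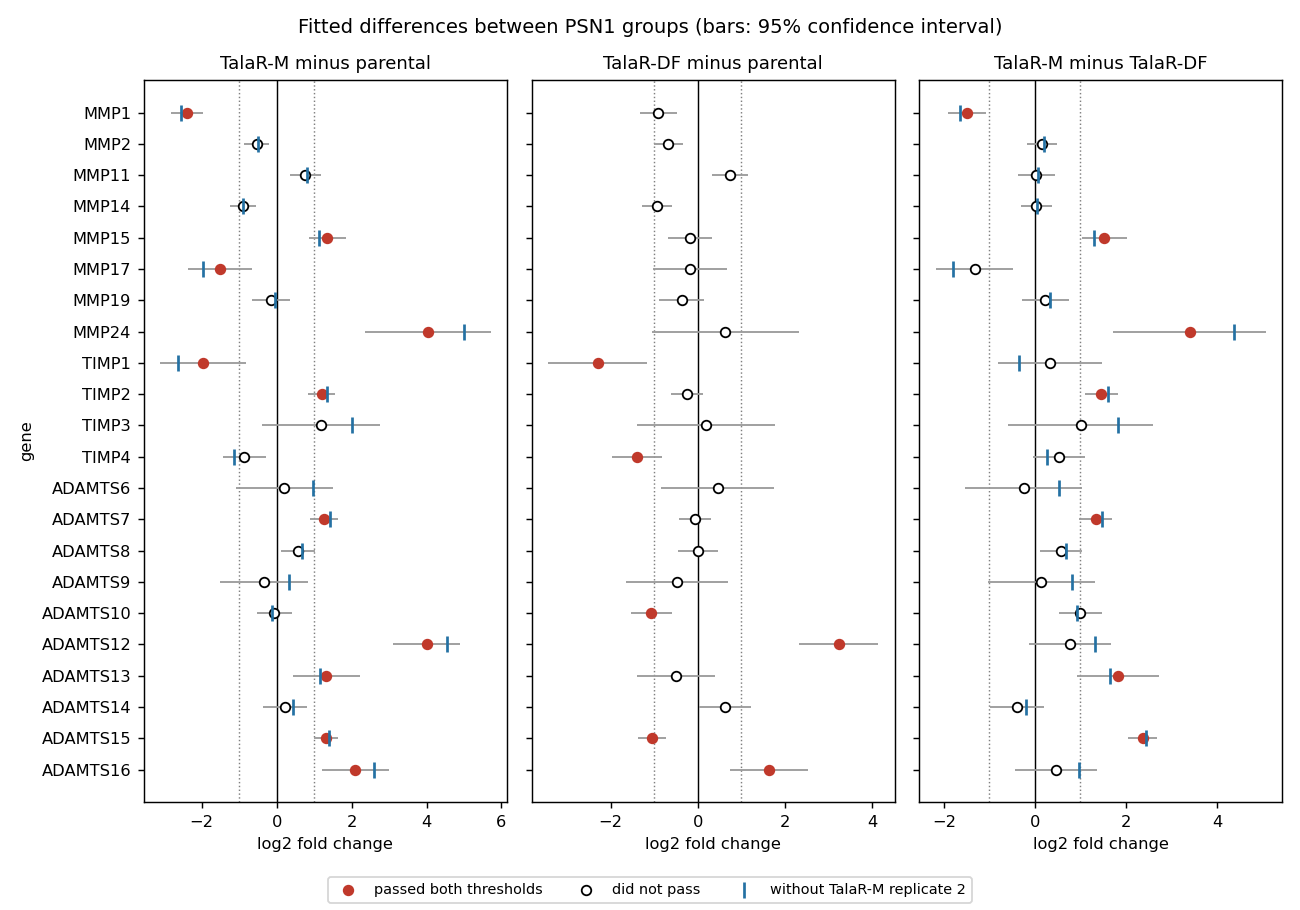
Fitted log2 fold changes of the 22 tested members (rows) in the 3 comparisons (panels), with 95% confidence intervals as bars. Filled red points passed both thresholds, open points did not, dotted lines mark 2-fold and blue ticks give the value without TalaR-M replicate 2. Red points lie on both sides of 0 in every panel, with 8 of 11 to the right in the first and 4 of 6 to the left in the second.

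Among the secreted MMPs, MMP1, the interstitial collagenase, fell in TalaR-M cells and stood between the other groups in TalaR-DF cells. It lies at chr11:102789401-102798160. Its level was 6.24, 6.14 and 6.17 log2 CPM in parental replicates 1 to 3, 3.87, 4.10 and 3.41 in TalaR-M and 5.31, 5.20 and 5.34 in TalaR-DF. No library of one group reached the range of another. Against parental cells it was 5.25-fold lower in TalaR-M (log2 fold change -2.39, SE 0.18, adjusted p = 4.03e-05 by limma) and against TalaR-DF cells 2.81-fold lower (-1.49, SE 0.18, adjusted p = 0.00151). Between TalaR-DF and parental cells the change was -0.90 (SE 0.18, adjusted p = 0.0106), short of 2-fold.

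MMP2 (gelatinase A), which cuts denatured collagen and basement membrane collagen, ranged from 4.98 to 5.24 log2 CPM in parental, 4.47 to 4.73 in TalaR-M and 4.31 to 4.49 in TalaR-DF libraries. Both resistant groups lay below the parental range and overlapped each other. Its changes from parental cells were -0.53 (SE 0.14, adjusted p = 0.0304) and -0.68 (SE 0.14, adjusted p = 0.0123), both under 2-fold. MMP11 (stromelysin-3), which is activated inside the cell by furin, had 1.03 to 1.41 log2 CPM in parental, 1.87 to 2.02 in TalaR-M and 1.74 to 2.22 in TalaR-DF libraries. Its differences of 0.77 and 0.74 from parental cells were also under 2-fold, with adjusted p of 0.0160 and 0.0221. MMP19 stayed at or below 0.68 log2 CPM in every library and passed no test.

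The membrane-type MMPs moved in different directions. Of 6 members of this class 4 were tested, and in TalaR-M cells 2 rose and 1 fell from the parental level, with none called between TalaR-DF and parental cells. MMP24 (MT5-MMP), a transmembrane protease best known from neurons, was at 0 in all parental libraries. In TalaR-M replicates 1 to 3 it had 5.09, 2.07 and 4.94 log2 CPM, or 533, 31 and 429 reads, and 0, 0.97 and 0.92 in TalaR-DF. Every TalaR-M library was above every other library, and replicate 2 was the lowest of them. With 0 taken as 1 CPM, the level of TalaR-M cells was at least 16.2-fold higher than the parental one (adjusted p = 0.00513), and at least 32.2-fold without replicate 2. MMP24 entered the test through its TalaR-M libraries, and with no filter this adjusted p was 0.0175. The difference from TalaR-DF cells was 3.40 (SE 0.73, adjusted p = 0.0207), and 4.38 without replicate 2. This call was lost in a fit of these 2 groups (adjusted p = 0.121), with no filter (0.0544) and without TalaR-M replicate 3 or any 1 TalaR-DF library (0.0603 to 0.0876). The gene spans chr20:35226690-35276998.

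MMP15 (MT2-MMP), a collagen-cutting protease anchored by a transmembrane helix, rose in TalaR-M cells and then lay at the parental level in TalaR-DF cells. It had 2.19, 1.90 and 2.03 log2 CPM in parental, 3.25, 3.85 and 3.09 in TalaR-M and 2.07, 1.77 and 1.76 in TalaR-DF libraries. The TalaR-M range lay above the others, which overlapped. It was 2.56-fold higher than in parental (1.35, SE 0.22, adjusted p = 0.00286) and 2.88-fold higher than in TalaR-DF cells (1.53, SE 0.22, adjusted p = 0.00317). The difference between TalaR-DF and parental cells was -0.17, with a 95% confidence interval from -0.67 to 0.33.

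MMP17 (MT4-MMP), which is held to the membrane by a lipid anchor, fell in TalaR-M cells. Its level was 4.37, 4.38 and 4.47 log2 CPM in parental, 2.70, 3.83 and 2.17 in TalaR-M and 4.36, 4.26 and 4.06 in TalaR-DF libraries. All TalaR-M libraries were the lowest, with replicate 2 nearest to the other groups. The change from parental cells was -1.51 (SE 0.37, adjusted p = 0.0208), and -1.97 without replicate 2. Against TalaR-DF cells it was -1.33 with an adjusted p of 0.0549, and -1.79 with 2.63e-06 once that library was left out. The call against parental cells was lost without any 1 parental library or TalaR-M replicate 1 (adjusted p of 0.0515 to 0.0761), with median-ratio scaling (0.0513), with no filter (0.0522) and in a fit of the 2 groups (0.0790). MMP14 (MT1-MMP), the main activator of MMP2 at the cell surface, was near the limit, at 1.13, 0.60 and 1.08 log2 CPM in parental libraries, 0, 0 and 0.10 in TalaR-M and 0 in all TalaR-DF libraries. Its fitted changes were -0.90 in TalaR-M (adjusted p = 0.00345) and -0.94 in TalaR-DF cells (adjusted p = 0.00343), not called. With 0 taken as 1 CPM, a lower bound, it was at least 1.84-fold higher in parental than in TalaR-DF cells. It was called in both groups without parental replicate 2 (-1.07 and -1.11). MMP14 entered the test through its parental libraries, and with no filter the adjusted p by limma was 0.0049 in both comparisons. An added pseudocount of 1 CPM, with 0 taken as no reads, gave -1.20 and -1.55. That setting puts any gene over 1 CPM in 1 group and at 0 in the other past 2-fold by construction, so it cannot decide the call.

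The inhibitors also split. TIMP1, a secreted inhibitor of most soluble MMPs and a weak one of membrane-type MMPs, fell in both resistant groups. It had 11.36, 11.25 and 11.26 log2 CPM in parental, 8.78, 10.67 and 8.52 in TalaR-M and 9.18, 8.85 and 8.95 in TalaR-DF libraries. Every resistant library was below every parental one, and TalaR-M replicate 2 was the nearest to them. TIMP1 was 4.91-fold lower in TalaR-DF (-2.29, SE 0.49, adjusted p = 0.0137) and 3.91-fold lower in TalaR-M cells (-1.97, SE 0.49, adjusted p = 0.0228). Without replicate 2 the latter was 6.24-fold (-2.64, adjusted p = 2.47e-09). With it, the TalaR-M call was lost without any 1 parental library or TalaR-M replicate 1 or 3 (adjusted p of 0.0563 to 0.0803), with no filter (0.0629) and in a fit of the 2 groups (0.0857). So was the TalaR-DF call without any 1 parental library or TalaR-DF replicate 2 or 3 (0.0515 to 0.0568). The 3 groups share 1 estimate of the spread, so TalaR-M replicate 2 also enters the SE of the TalaR-DF change. Without TalaR-M replicate 2 that change was again -2.29 (SE 0.096, adjusted p = 3.47e-09 by limma). TalaR-M minus TalaR-DF was 0.33 (95% confidence interval from -0.81 to 1.46) and turned to -0.35 without replicate 2, short of 2-fold.

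TIMP2, which both inhibits MMPs and helps MMP14 to activate MMP2, rose in TalaR-M cells only. Its level was 6.01, 5.92 and 5.89 log2 CPM in parental, 7.40, 6.84 and 7.20 in TalaR-M and 5.71, 5.60 and 5.75 in TalaR-DF libraries. The 3 groups did not overlap. It was 2.30-fold higher than in parental (1.20, SE 0.16, adjusted p = 0.00095) and 2.75-fold higher than in TalaR-DF cells (1.46, SE 0.16, adjusted p = 0.000757). TalaR-DF minus parental was -0.25, with a 95% confidence interval from -0.62 to 0.11. TalaR-M replicate 2 also enters the spread behind this interval. Without that library the change was again -0.25 (SE 0.070, adjusted p = 0.0076 by limma), a small fall well under 2-fold.

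TIMP4, the least widely expressed TIMP, had 3.02, 2.72 and 2.92 log2 CPM in parental, 1.94, 2.56 and 1.58 in TalaR-M and 1.35, 1.43 and 1.69 in TalaR-DF libraries. Both resistant groups lay below the parental libraries. It fell 2.63-fold in TalaR-DF cells (-1.40, SE 0.25, adjusted p = 0.00562). In TalaR-M cells the change was -0.86 (adjusted p = 0.0389), under 2-fold. It passed 2-fold without replicate 2, at -1.13 (adjusted p = 0.000104), and with library weights, at -1.16 (adjusted p = 2.25e-05 by limma). TIMP3, which binds to the matrix, was low, at 0, 0.20 and 1.23 log2 CPM in parental, 2.37, 0 and 2.61 in TalaR-M and 1.00, 0.97 and 0 in TalaR-DF libraries. TalaR-M replicates 1 and 3 were above all other libraries and replicate 2 was at 0. TIMP3 passed no test with all libraries (TalaR-M minus parental 1.18, adjusted p = 0.240). Without replicate 2 it was higher in TalaR-M cells by 2.01 than in parental (adjusted p = 0.000496) and by 1.83 than in TalaR-DF cells (adjusted p = 0.00139).

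**Figure D4:**
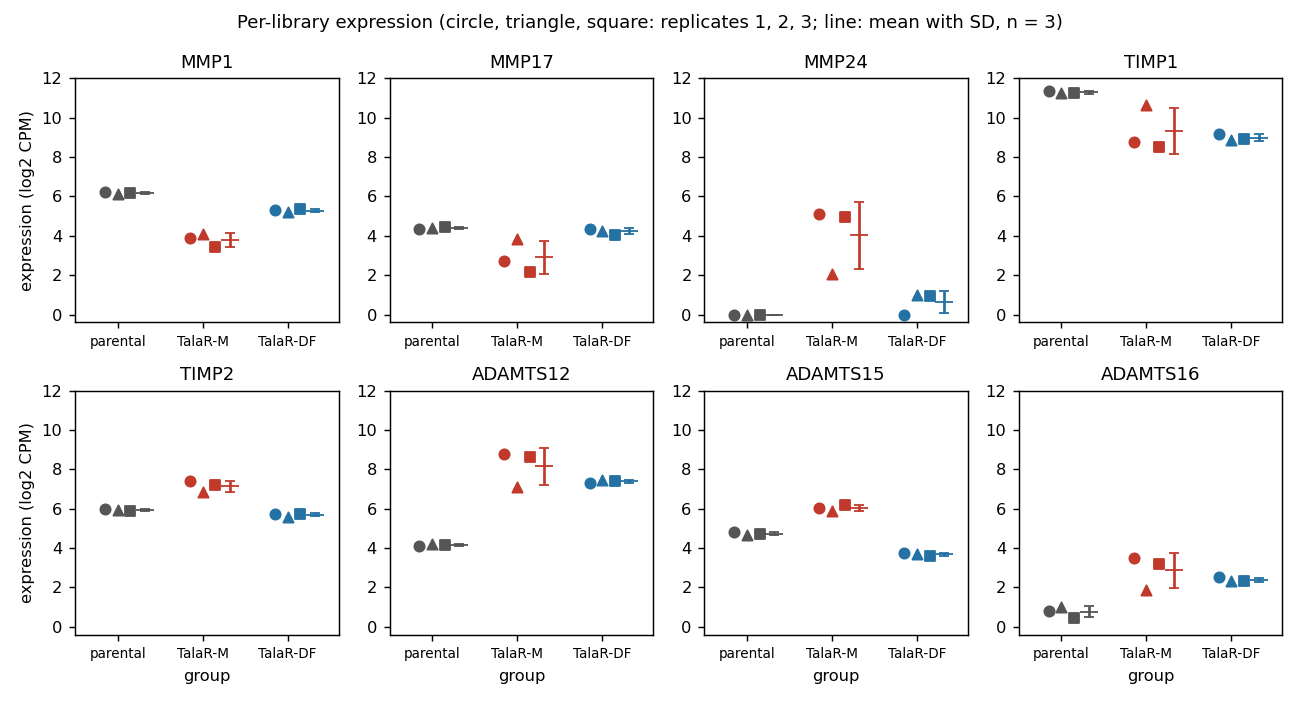
Expression (y axis, log2 CPM) of 8 members in parental, TalaR-M and TalaR-DF libraries (x axis). Circles, triangles and squares are replicates 1, 2 and 3, and the line beside them is the mean with its SD (n = 3). The TalaR-M triangle lies apart from its group for MMP17, MMP24, TIMP1, ADAMTS12 and ADAMTS16, and the TalaR-DF points stay above the parental ones for ADAMTS12 and ADAMTS16.

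The largest change of any ADAMTS gene was that of ADAMTS12, a secreted protease known to cut COMP, which lies at chr5:33523535-33892019 and carries the TGAATCA printed above. It had 4.11, 4.23 and 4.16 log2 CPM in parental, 8.77, 7.09 and 8.64 in TalaR-M and 7.31, 7.48 and 7.40 in TalaR-DF libraries. In reads, the parental libraries held 235 to 260, the TalaR-M libraries 1025 to 6863 and the TalaR-DF libraries 2143 to 2449. All resistant libraries were above all parental ones. ADAMTS12 was 16.0-fold higher in TalaR-M (4.00, SE 0.39, adjusted p = 0.000181; 23.3-fold without replicate 2) and 9.37-fold higher in TalaR-DF cells (3.23, SE 0.39, adjusted p = 0.000782). The resistant groups overlapped through TalaR-M replicate 2. TalaR-M minus TalaR-DF was 0.77 (adjusted p = 0.220) with that library and 1.31 (adjusted p = 5.94e-08) without it. ADAMTS7, the closest relative of ADAMTS12 and also a COMP protease, was near the limit, at 0, 0.20 and 0 log2 CPM in parental, 1.65, 1.05 and 1.32 in TalaR-M and 0 in all TalaR-DF libraries. TalaR-M libraries, with 15 to 48 reads, were the highest. ADAMTS7 also entered the test through its TalaR-M libraries. It rose in TalaR-M against parental cells (1.27, SE 0.16, adjusted p = 0.000742), and with 0 taken as 1 CPM it was at least 2.45-fold higher than in TalaR-DF cells (adjusted p = 0.00123). With no filter these adjusted p were 0.00143 and 0.00263.

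ADAMTS15, a protease of aggrecan and versican, changed in opposite directions in the resistant groups. Its level was 4.82, 4.66 and 4.70 log2 CPM in parental, 6.06, 5.89 and 6.20 in TalaR-M and 3.74, 3.72 and 3.58 in TalaR-DF libraries. The groups were fully apart, and TalaR-M replicate 2 was close to the other libraries of its group. It rose 2.50-fold in TalaR-M (1.32, SE 0.14, adjusted p = 0.000246) and fell 2.07-fold in TalaR-DF cells (-1.05, SE 0.14, adjusted p = 0.00114) from the parental level. The resistant groups differed by 2.37 (SE 0.14, adjusted p = 3.78e-05), or 5.16-fold. The fall in TalaR-DF cells was at the edge of the 2-fold threshold, and an added pseudocount of 1 CPM took it below, to -0.99. ADAMTS8, another proteoglycanase that lies next to ADAMTS15 on chromosome 11 (chr11:130404923-130428609 and chr11:130448645-130476645), was at 0 in all parental and TalaR-DF libraries and at 1.08, 0.34 and 0.28 log2 CPM in TalaR-M. Its difference from either group was not called (adjusted p = 0.0757 and 0.106). Taking 0 as 1 CPM, the change was bounded below at 1.40-fold. A pseudocount of 1 CPM, with 0 taken as no reads, gave 1.32 (adjusted p = 0.000336 and 0.00072 by limma). As for MMP14, that setting passes 2-fold by construction for such a gene, so it cannot decide the call. ADAMTS9, which also cuts versican, had 1.98 to 2.06 log2 CPM in parental and 1.10 to 1.83 in TalaR-DF libraries, and 2.24, 0.34 and 2.47 in TalaR-M. It passed no test.

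ADAMTS16, whose substrates are less well defined, rose in both resistant groups. It had 0.83, 1.01 and 0.45 log2 CPM in parental, 3.52, 1.87 and 3.20 in TalaR-M and 2.51, 2.35 and 2.34 in TalaR-DF libraries. Every resistant library was above every parental one, with TalaR-M replicate 2 the lowest of them. The rise was 4.29-fold in TalaR-M (2.10, SE 0.39, adjusted p = 0.00574) and 3.11-fold in TalaR-DF cells (1.64, SE 0.39, adjusted p = 0.0212). Without replicate 2 the former was 6.05-fold. The call in TalaR-DF cells was lost without any 1 parental or TalaR-DF library (adjusted p of 0.0532 to 0.0904) and with no filter (0.0547). The 3 groups share 1 estimate of the spread, so TalaR-M replicate 2 also enters the SE of this comparison. Without TalaR-M replicate 2 the TalaR-DF change was again 1.64 (SE 0.16, adjusted p = 3.65e-06 by limma). ADAMTS18, a near relative of ADAMTS16, was at 0 in all libraries.

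ADAMTS13, the protease of von Willebrand factor, had 1.98, 2.01 and 2.14 log2 CPM in parental, 2.69, 3.72 and 3.70 in TalaR-M and 1.31, 2.33 and 0.98 in TalaR-DF libraries. TalaR-M libraries lay above all others, and TalaR-DF libraries spread around the parental ones. It rose 2.51-fold against parental (1.33, SE 0.39, adjusted p = 0.0411) and was 3.55-fold higher than in TalaR-DF cells (1.83, SE 0.39, adjusted p = 0.0201). The first call was lost without any 1 parental library, TalaR-M replicate 3 or TalaR-DF replicate 1 (adjusted p of 0.0669 to 0.124), and the second without TalaR-M replicate 3 or TalaR-DF replicate 1 or 3 (0.0602 to 0.0848) and in a fit of the 2 groups (0.114). With no filter both were lost (0.102 and 0.0525). The gene for its substrate, VWF, was at 0 in all libraries.

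ADAMTS10, which binds fibrillin, fell in TalaR-DF cells and overlapped with the parental level in TalaR-M cells. Its level was 4.39, 4.74 and 4.60 log2 CPM in parental, 4.25, 4.64 and 4.65 in TalaR-M and 3.69, 3.69 and 3.17 in TalaR-DF libraries. The 3 TalaR-DF libraries were the lowest. The fall was 2.09-fold (-1.06, SE 0.20, adjusted p = 0.00821). It lost 2-fold without TalaR-DF replicate 3 (-0.89) and without parental replicate 2 (-0.98). Against TalaR-DF cells the TalaR-M level was 1.00 higher (adjusted p = 0.0173), just short of 2-fold, and with median-ratio scaling it was called (1.15). ADAMTS6, its closest relative, had 1.73 to 1.95 log2 CPM in parental, 2.17 to 2.50 in TalaR-DF and 2.80, 0.49 and 2.83 in TalaR-M libraries. The low value in replicate 2 set the spread of ADAMTS6 (SD 1.34), and no comparison was called. ADAMTS14, which trims the amino end of procollagens, had 4.06 to 4.45 log2 CPM in parental, 4.13 to 5.02 in TalaR-M and 4.79 to 5.25 in TalaR-DF libraries and was called in none. The other procollagen N-propeptidases, ADAMTS2 and ADAMTS3, were at 0.

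Some members share sequence with other genes, and the sources used here do not say whether reads were counted by strand. TIMP1 lies inside the span of SYN1, which encodes a synaptic vesicle protein, on the opposite strand and with no shared exon. SYN1 had 6.33, 6.17 and 6.22 log2 CPM in parental, 0.74, 1.05 and 0.51 in TalaR-M and 2.77, 2.56 and 2.86 in TalaR-DF libraries. It fell by 5.48 in TalaR-M and by 3.51 in TalaR-DF cells (adjusted p = 3.93e-07 and 4.54e-06). In TalaR-M replicate 2, SYN1 was close to the other TalaR-M libraries, unlike TIMP1. Any part of the overlap in the TIMP1 result was not tested. TIMP3 lies in the span of SYN3 and TIMP4 in that of SYN2, with which it shares exon sequence, each on the opposite strand. SYN2 and SYN3 were at 0 in all libraries. MMP24 shares exon sequence with MMP24OS, ADAMTS9 with ADAMTS9-AS1, MMP1 with WTAPP1 and MMP19 with TMEM198B, each on the opposite strand, and TIMP2 with CEP295NL on the same strand, so these levels carry that uncertainty.

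Genes that act with the members were read from lists. Of 16 tested genes of plasminogen activation and proprotein processing, which switch on MMP precursors, 1 rose and 5 fell in TalaR-M, and 1 rose and 4 fell in TalaR-DF cells. Without TalaR-M replicate 2 the first counts were 1 and 3. PLAT, tissue plasminogen activator, had 6.28 ± 0.02 (SD, n = 3) log2 CPM in parental, 6.32 ± 0.50 in TalaR-M and 4.23 ± 0.12 in TalaR-DF cells. It fell by 2.05 in TalaR-DF cells (adjusted p = 0.000503) and was 2.10 higher in TalaR-M than in TalaR-DF cells (adjusted p = 0.000871). CTSS, a cathepsin, had 1.46 ± 0.13 log2 CPM in parental cells and was at 0 in both resistant groups, so its parental libraries decided that it was tested. PCSK6, a proprotein convertase, fell by 1.57 in TalaR-M cells (adjusted p = 0.0406), but by 0.95, under 2-fold, without replicate 2.

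Of 13 tested surface regulators and uptake receptors, 1 rose and 3 fell in TalaR-M and 4 fell in TalaR-DF cells. LRP1, the endocytic receptor that clears MMPs and TIMP complexes, had 7.27 ± 0.08 (SD, n = 3) log2 CPM in parental, 4.88 ± 0.86 in TalaR-M and 4.03 ± 0.40 in TalaR-DF cells, and fell in both (adjusted p = 0.00349 and 0.000831). CD82, a tetraspanin, went from 4.81 ± 0.05 to 3.51 ± 0.22 and 0.71 ± 0.05, and PCOLCE, the enhancer of procollagen C-proteinase, from 3.05 ± 0.02 to 0.97 ± 0.76 and 0.31 ± 0.27, called in both groups. Without TalaR-M replicate 2, none rose and 4 fell in TalaR-M and 5 fell in TalaR-DF cells. SDC1, a proteoglycan of the cell surface, was called higher in TalaR-M and lower in TalaR-DF cells, with 3.68 ± 0.12 in parental, 4.72 ± 0.11 in TalaR-M and 2.53 ± 0.12 in TalaR-DF cells. Its rise of 1.04 in TalaR-M cells came to 1.00 without replicate 2, just below the threshold.

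The ADAM proteases, the membrane-bound relatives, had 2 of 9 tested genes lower in TalaR-M and 1 higher and 2 lower in TalaR-DF cells. ADAM8 fell by 3.14 and by 3.08 (adjusted p = 6.49e-05 and 9.39e-05). ADAM22 fell by 1.66 in TalaR-M, ADAM19 went from 2.53 ± 0.11 (SD, n = 3) log2 CPM to 0 in TalaR-DF, and ADAM11 rose by 1.81 in TalaR-DF cells. ADAMTS-like proteins and papilin, which share the non-catalytic part of ADAMTS enzymes, had 2 of 5 tested genes lower in TalaR-M and 4 lower in TalaR-DF cells. ADAMTSL4 fell by 1.85 and by 1.11 and THSD4 by 1.40 and by 2.05, and ADAMTSL2 fell by 1.07 in TalaR-DF cells. PAPLN was at 1.20 ± 0.38 (SD, n = 3) log2 CPM in parental cells and at 0 in TalaR-DF cells, which was called. Without replicate 2 the THSD4 change in TalaR-M cells was -0.87, under 2-fold. With that library left out, ADAMTSL5 was also called higher in TalaR-M cells. PAPPA, one of 2 tested metzincins of other families, fell by 2.94 and by 2.95 (adjusted p = 0.0263 and 0.0304). Without TalaR-M replicate 2 its fall in TalaR-M cells was 1.87 on the log2 scale, and TalaR-M cells were then 1.09 above TalaR-DF cells (adjusted p = 2.28e-06).

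Of 12 tested matrix substrates other than collagens, 2 rose and 4 fell in TalaR-M and 1 rose and 5 fell in TalaR-DF cells. Without TalaR-M replicate 2 these counts were 5 and 4, and 2 and 7. DCN, which counts among those that rose in TalaR-M cells, was above 0 only there, so that group decided that it was tested. HAPLN1, the link protein of aggrecan and versican, had 6.37 ± 0.05 (SD, n = 3) log2 CPM in parental, 5.22 ± 0.50 in TalaR-M and 1.71 ± 0.21 in TalaR-DF cells. It was called in both, and without replicate 2 its change in TalaR-M cells was -0.87, under 2-fold. FBLN1, a fibulin that binds ADAMTS1, was at 0 in parental cells and at 3.83 ± 0.43 in TalaR-M and 2.06 ± 0.12 in TalaR-DF cells. LUM, a small proteoglycan, fell by 3.50 and by 1.78 and NID1, a basement membrane protein, by 2.65 in TalaR-DF cells. Of 21 tested AP-1, ETS and related factors, which act on many MMP promoters, 4 rose and 2 fell in TalaR-M and 4 fell in TalaR-DF cells. EHF rose by 2.04, ATF3 by 1.61 and FOSB by 1.66 in TalaR-M cells, and ETV1 fell by 1.63 (adjusted p between 0.00018 and 0.0128). None of these 4 was called between TalaR-DF and parental cells, where the 4 that fell were CEBPB, ELF3, JUN and JUNB. Without TalaR-M replicate 2, 4 rose and 3 fell in TalaR-M cells, the 3 being CEBPB, JUNB and ETV1, with ETV1 at -1.15. The calls of each list are set against the 13.3% and 9.73% of all genes given above.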

How the data were processed

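Poly(A) RNAseq of 9 PSN1 libraries (stranded, paired reads of 150 bases) was used. The authors deposited log2 values: log2 CPM scaled by effective library sizes, with 1 prior count, and negative values replaced by 0. The values themselves showed this, since 100% of those above 0 and under 50 CPM came out within 0.05 of a whole read. Reads of genes at 0 are lost, so no count test was run. The submitters' processing notes name hg38, and the aligner, counter and annotation are not given in the sources used here. Columns named maintain were read as TalaR-M and those named withdraw as TalaR-DF. Another 39 listed samples were not analysed here.

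Genes above 0 in at least 3 of 9 libraries (12471) were fitted in 1 model of 3 groups with limma 3.58.1 in R 4.3.3 with a mean-variance trend and Benjamini-Hochberg adjustment over all of them, and called at adjusted p under 0.05 and 2-fold. The fit was tested on simulated data. Positions, lengths and exon overlaps came from GENCODE 44, and promoter windows from RefSeq (27 of 46 members matched). Motif windows held 250 bases. Figures were drawn with matplotlib 3.10.9.

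Members and lists were chosen with earlier results of these data known, and the grouping of members by role was written after their values were seen. Every member called in any comparison and every TIMP is given by library, other members by range, and up to 4 called genes of each list, those of largest change, are named. A few further called genes are named to state a limit. Some named items are not reported here. Alternatives were the filter, a pseudocount, median-ratio scaling, no trend, library weights, 2 groups only, a replicate block, other thresholds and leaving out each library. Counts without genes that 1 group brought past the filter were added after seeing the data. Each group has 3 libraries, and values at 0 are bounded at 1 CPM.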

Additional observations from a re-analysis of the deposited data

Results flagged for a closer look

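For 5 members, the fitted changes of TalaR-M and TalaR-DF cells from parental cells had opposite signs. They were taken from the members called by the limma test between the resistant groups. That test is of the difference between the 2 changes, since both share the parental libraries. ADAMTS15 differed by 2.37 on the log2 scale (1.32 in TalaR-M and -1.05 in TalaR-DF cells, adjusted p = 3.78e-05), and both of its changes from parental cells were called. ADAMTS13 differed by 1.83 (1.33 and -0.50, adjusted p = 0.0201). MMP15 differed by 1.53 (1.35 and -0.17, adjusted p = 0.00317). TIMP2 differed by 1.46 (1.20 and -0.25, adjusted p = 0.000757). ADAMTS7 differed by 1.34 (1.27 and -0.07, adjusted p = 0.00123), with all TalaR-DF libraries at 0. Its -0.07 came from parental replicate 2 alone, at 0.20 log2 CPM, and was 0 without that library. ADAMTS7 also entered the test through its TalaR-M libraries, so the sign of its TalaR-DF change shows no direction. For ADAMTS13, MMP15, TIMP2 and ADAMTS7 the TalaR-DF change alone was not called. No group had the 4 samples needed to look for single outlying values.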

How the results depend on the processing

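Counts of called members were 11, 6 and 7 for TalaR-M minus parental, TalaR-DF minus parental and TalaR-M minus TalaR-DF. With a pseudocount of 8 CPM they were 6, 2 and 4, and over all genes 711, 426 and 272, since low genes then change less by construction. With no fold threshold all genes gave 2938, 2315 and 1502, with 1.5-fold 2637, 2042 and 1369, and TalaR-DF minus parental held 10 members under either. A fit of only the 2 groups gave 484 genes for TalaR-M minus TalaR-DF. Leaving out 1 library gave 8 to 13, 3 to 6 and 5 to 10 members, the 3 without TalaR-DF replicate 3, and 1298 to 2045, 983 to 1417 and 578 to 1043 genes. The cause of these shifts was not tested. The replicate numbers do not pair the samples (correlations of same-numbered deviations from -0.417 to 0.217), and a replicate block gave 11, 6 and 7 members.

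Reversed signs arose for members that were not called. ADAMTS10 in TalaR-M minus parental became 0.046 with median-ratio scaling. With library weights ADAMTS9 became 0.36 in TalaR-M minus parental, and ADAMTS6 became 0.50 and TIMP1 -0.36 in TalaR-M minus TalaR-DF. Leaving out 1 library, the values ranged in TalaR-M minus parental from -0.16 to 0.066 for ADAMTS10, from -0.0067 to 0.44 for ADAMTS14, from -0.19 to 0.98 for ADAMTS6 and from -0.72 to 0.34 for ADAMTS9. In TalaR-DF minus parental they ranged from -0.10 to 0 for ADAMTS7 and from -0.060 to 0.56 for TIMP3. In TalaR-M minus TalaR-DF they ranged from -0.64 to 0.53 for ADAMTS6, from -0.25 to 0.81 for ADAMTS9, from -0.051 to 0.19 for MMP11, from 0 to 0.050 for MMP14 and from -0.35 to 0.73 for TIMP1. The cause was not tested, beside the low weight given to TalaR-M replicate 2 (0.0133).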
